A study of Mus musculus with 6 samples.

Results

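The 30 genes described here are markers of astrocytes, the glial cells that share their origin in neural progenitors with oligodendrocytes. They were taken by name from textbook astrocyte markers, with earlier results of these data known. Counts over the list are therefore a description and no test of the list. All 30 were found among the 35275 gene identifiers of the deposited tables. Expression was measured in the whole forebrains of 6 C57BL/6 mice at postnatal day 9. The conditional knockout (cKO) group held 3 mice of genotype Pdgfra-CreER:Parp1fl/fl, in which tamoxifen activates a recombinase that removes floxed Parp1 from Pdgfra-expressing cells. The control group held 3 Parp1fl/fl mice, described as littermates, without Cre. All 6 mice carried the floxed allele and received tamoxifen at postnatal days 1, 2 and 3. Both sexes were used, without a label per mouse. Because controls lack Cre, Parp1 deletion and the presence of the recombinase cannot be told apart. In the brain Pdgfra is best known as a gene of oligodendrocyte precursors and is also expressed by meningeal and perivascular fibroblasts. The question for these genes is whether the astrocyte lineage differed when Parp1 was deleted in the oligodendrocyte lineage.

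Astrocytes clear glutamate and GABA from synapses and convert glutamate to glutamine. They move water, potassium and bicarbonate at the blood vessel wall, store glycogen, and hold zinc and copper on metallothioneins. In the mouse forebrain they multiply and take on their mature transporters during the first weeks after birth, the age sampled here. Most of the 30 genes are not exclusive to astrocytes in a whole forebrain; Clu, Mt1 and Mt2, for example, are also expressed in other cells. In these bulk libraries fewer astrocytes and less RNA per astrocyte cannot be told apart.

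Total counts ran from 19934003 to 29310193 in cKO libraries and from 17262042 to 22118915 in control libraries. Every member had between 292 (Slc7a10) and 49045 (Slc1a2) counts in each library. Levels are given as CPM, the TMM-normalised count scaled to the library size. Parp1 itself was at 80.8, 79.7 and 79.1 CPM in cKO replicates 1, 2 and 3, against 90.8, 97.3 and 85.6 CPM in control replicates 1, 2 and 3 (log2 fold change -0.19, edgeR adjusted p = 0.572). Control replicate 3 stood apart from the other 5 libraries: its 12 striatal genes summed to 483 CPM, against 1184 to 1476 CPM elsewhere, and its 12 thalamic genes to 837 CPM, against 370 to 427 CPM elsewhere.

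None of the 30 astrocyte genes was called different between cKO and control forebrains. In edgeR's quasi-likelihood test, adjusted by Benjamini-Hochberg, 0 were higher and 0 were lower, and the smallest adjusted p was 0.816 (Grm3). Over all 16938 tested genes 0.266% were called, 0.059% higher and 0.207% lower in cKO. At an unadjusted p under 0.05 there were also 0 of the 30, where 6.27% of all tested genes passed. This count of 0 depended on the libraries kept, and it was 5 without cKO replicate 1. DESeq2 and limma on the FPKM values called 0 as well. The median log2 fold change of the members was 0.015, with 16 positive and 14 negative, beside -0.00068 over all tested genes, of which 50.2% were negative. Only Gpc5 had groups that did not overlap, 1 of 30, beside 11.9% of all tested genes.

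The sizes that remain possible were small for most members. The 95% interval of 28 of the 30 lay within 1.5-fold either way, where 68.8% of all tested genes had such an interval. Of the 8855 other tested genes in the members' range of 17.2 to 1538 CPM, 96.1% did, so the members' share is near that of genes of like abundance. Among those 28 genes the intervals reached down to a ratio of 0.748 and up to 1.39, cKO over control. The metallothionein genes Mt1 and Mt2 were the exceptions, with upper bounds of 1.76-fold and 1.65-fold higher in cKO. Of the 30 log2 fold changes 20 were under 0.1 in size, 8 lay between 0.1 and 0.2, and 2 were over 0.2.

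**Figure D1:**
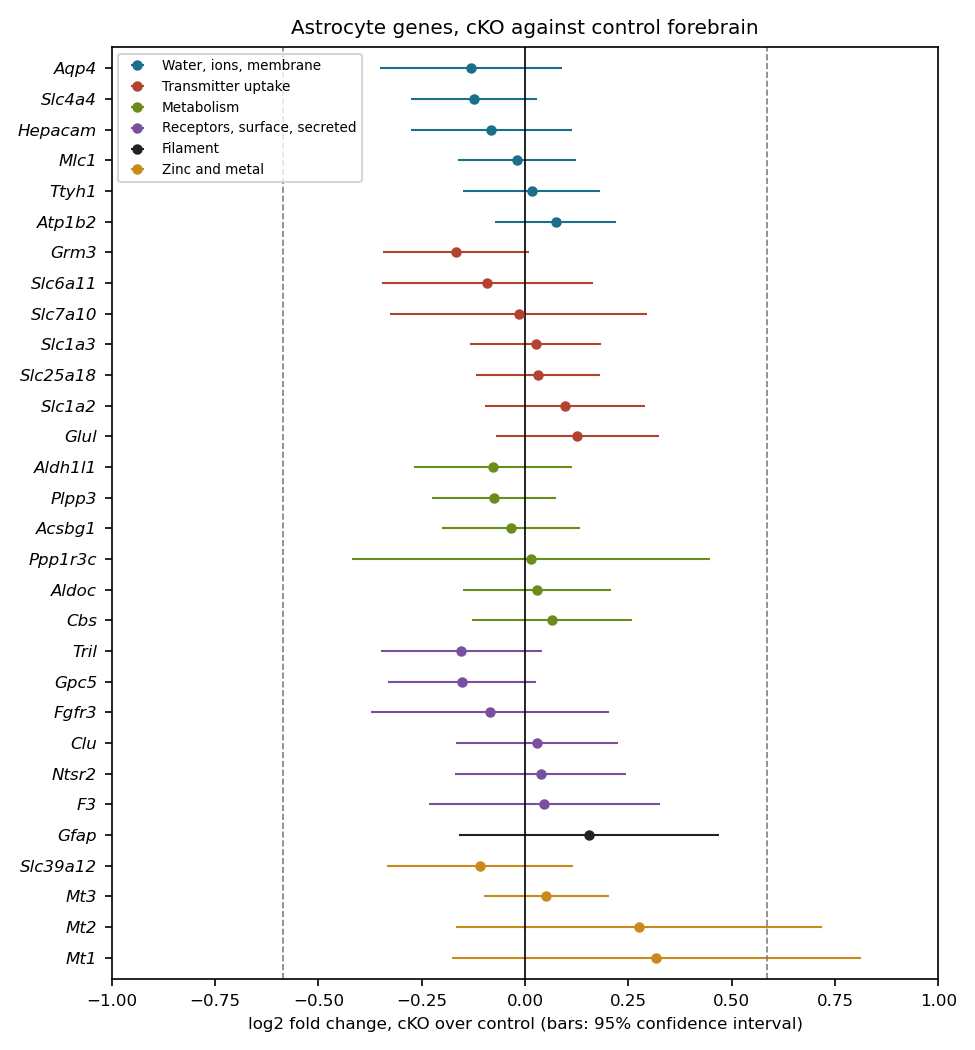
Log2 fold change of each astrocyte gene, cKO over control (points), with its 95% confidence interval (bars), coloured by role; dashed lines mark 1.5-fold either way. Of the 30 intervals, those of Mt1 and Mt2 alone cross a dashed line, and none excludes 0.

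The members covered a wide range of levels. Per gene length, on the deposited FPKM scale, Mt1 had the highest level, 652 ± 155 FPKM in cKO and 527 ± 46.8 FPKM in controls (SD, n = 3 per group), and ranked 49 of the 35275 identifiers by its control mean. Glul, which encodes the enzyme that makes glutamine from glutamate, followed at 376 ± 33.1 FPKM in cKO and 346 ± 28.8 FPKM in controls. Mt2 and Gfap came next, at 403 ± 82.8 and 298 ± 28.3 FPKM in cKO and 335 ± 38.5 and 269 ± 54.6 FPKM in controls. These neighbours overlapped within their spread: by control mean the order was Glul, Mt2 and Gfap, and by cKO mean Mt2, Glul and Gfap. By control mean the lowest was Ppp1r3c, at 8.84 ± 2.72 FPKM in cKO and 8.71 ± 0.0563 FPKM in controls, next to Slc7a10 at 8.81 ± 1.99 FPKM in cKO and 8.88 ± 0.713 FPKM in controls. By cKO mean the lowest was Gpc5, at 8.61 ± 0.0535 FPKM in cKO and 9.6 ± 0.421 FPKM in controls. Together the 30 genes took 0.8 ± 0.0295% of the counts of cKO libraries and 0.77 ± 0.0302% of those of control libraries.

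**Figure D2:**
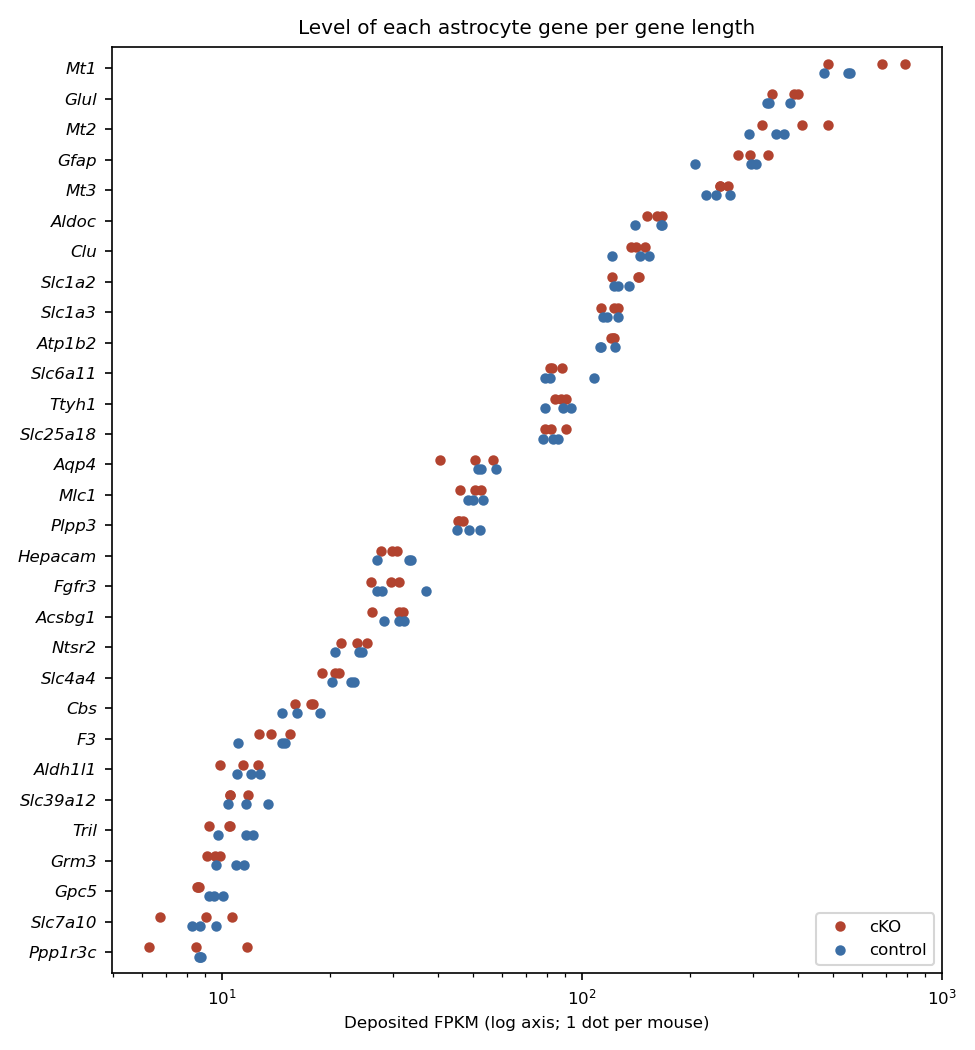
Deposited FPKM of each astrocyte gene on a log axis, 1 dot per mouse, cKO dots drawn above control dots and genes ordered by their control mean. The dots of both groups overlap for every gene but Gpc5, from Mt1 at the top, with a control mean of 527 FPKM, to Ppp1r3c at the bottom, with 8.71 FPKM.

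Genes of glutamate and GABA handling were close between the groups. Slc1a2, the main glutamate transporter of the forebrain, was at 1385, 1678 and 1706 CPM in cKO replicates 1, 2 and 3, against 1569, 1452 and 1436 CPM in control replicates 1, 2 and 3. The cKO values lay on both sides of the controls, and the log2 fold change was 0.098 (95% interval -0.096 to 0.29, edgeR adjusted p = 0.895). Slc1a3, the glutamate transporter that is abundant in radial glia and immature astrocytes, was at 495, 563 and 557 CPM in cKO, against 557, 504 and 526 CPM in the control forebrains. Its log2 fold change was 0.025 (interval -0.13 to 0.18), and the groups overlapped. The ratio of Slc1a2 to Slc1a3 on the FPKM scale, which increases as astrocytes mature, was 1.07, 1.14 and 1.17 in cKO libraries and 1.08, 1.1 and 1.04 in control libraries.

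Glul was at 928, 1093 and 1138 CPM in cKO replicates 1, 2 and 3, against 1054, 917 and 921 CPM in control replicates 1, 2 and 3. Control replicate 1 lay inside the cKO range, and the log2 fold change was 0.13 (95% interval -0.07 to 0.32, edgeR adjusted p = 0.862). Grm3, a metabotropic glutamate receptor of astrocytes, had the smallest p of the 30, with 34.4, 32.3 and 34.5 CPM in cKO, against 38.6, 40.5 and 34.4 CPM in the control forebrains. Its log2 fold change was -0.17 (interval -0.34 to 0.01), and control replicate 3 was level with the cKO libraries. Without control replicate 3 its log2 fold change was -0.24, with an edgeR adjusted p of 0.476.

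Slc6a11, the GABA transporter GAT-3 (chromosome 6, 114131241 to 114249952 in mm10), was at 352, 339 and 338 CPM in cKO, against 321, 330 and 445 CPM in the control forebrains. Control replicate 3 was above all other libraries, and the log2 fold change of -0.091 was 0.069 without it, neither of them called. The mitochondrial glutamate carrier gene Slc25a18 and the neutral amino acid transporter gene Slc7a10 had log2 fold changes of 0.031 and -0.015. All 7 genes of this role had an interval within 1.5-fold.

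Genes of water, ions and membrane contacts showed 0 calls among 6. Aqp4, the water channel of the endfeet on blood vessels, was at 283, 258 and 210 CPM in cKO replicates 1, 2 and 3, against 266, 291 and 265 CPM in control replicates 1, 2 and 3. The lowest library was cKO replicate 3 and the groups overlapped, with a log2 fold change of -0.13 (95% interval -0.35 to 0.09, edgeR adjusted p = 0.875). Slc4a4, a sodium and bicarbonate cotransporter, was at 165, 165 and 154 CPM in cKO, against 180, 160 and 186 CPM in the control forebrains. Control replicate 2 lay inside the cKO range, and the log2 fold change was -0.12 (interval -0.28 to 0.03).

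Mlc1 and Hepacam encode partner proteins at astrocyte contacts whose human counterparts are mutated in a leukodystrophy with brain swelling. Mlc1 averaged 139 ± 7.21 CPM in cKO and 141 ± 7.37 CPM in the control forebrains (SD, n = 3 per group), a log2 fold change of -0.019. Hepacam averaged 98 ± 6.57 CPM in cKO and 104 ± 12.8 CPM in the control forebrains, a log2 fold change of -0.081. Atp1b2, a beta subunit of the sodium pump, and Ttyh1, a membrane protein of the tweety family, had log2 fold changes of 0.074 and 0.016.

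The metabolic genes had a median log2 fold change of -0.0095 over 6 genes, with 0 called. Aldh1l1, a folate enzyme widely used to mark astrocytes, was at 51.9, 48.1 and 42 CPM in cKO replicates 1, 2 and 3, against 45.9, 52.8 and 50.7 CPM in control replicates 1, 2 and 3. Its groups overlapped, with a log2 fold change of -0.077 (95% interval -0.27 to 0.11, edgeR adjusted p = 0.913). The glycolytic enzyme gene Aldoc, the acyl-CoA synthetase gene Acsbg1, the cystathionine synthase gene Cbs and the lipid phosphatase gene Plpp3 lay between -0.075 and 0.065. Ppp1r3c, which targets a phosphatase to glycogen, spread most within a group. It was at 31.3, 23.3 and 17.5 CPM in cKO, a coefficient of variation of 29%, against 23.4, 23.5 and 24 CPM in the control forebrains, with 1.47%. The control values lay inside the cKO range, and the log2 fold change was 0.015.

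Receptors and surface or secreted proteins also held 0 called genes of 6. Gpc5, a heparan sulfate proteoglycan of the glypican family (chromosome 14, 115092215 to 116525179), was at 24.2, 24.4 and 24.9 CPM in cKO, against 26.1, 26.7 and 28.8 CPM in the control forebrains. All cKO values lay below all control values, with a log2 fold change of -0.15 (95% interval -0.33 to 0.03, edgeR adjusted p = 0.835). A two-sided exact permutation test gave p = 0.1, the smallest that 3 mice against 3 allow. Tril, a co-receptor of Toll-like receptor signalling, was at 55.5, 56.4 and 50.3 CPM in cKO, against 62.4, 52 and 66.1 CPM in the control forebrains. Its groups overlapped, with a log2 fold change of -0.15 (interval -0.35 to 0.04).

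Fgfr3, a fibroblast growth factor receptor, had 158 CPM in control replicate 3 and 112 to 130 CPM in the other 5 libraries. Its log2 fold change was -0.085 with all libraries and 0.073 without control replicate 3, and it was called in neither fit (edgeR adjusted p = 0.94 and 0.988). The neurotensin receptor gene Ntsr2, the tissue factor gene F3 and the clusterin gene Clu had log2 fold changes of 0.038, 0.047 and 0.029. Exons of 10 members, among them Gpc5, Tril, Fgfr3, Slc1a2, Glul, Aldh1l1 and Mt2, overlap an opposite-strand gene, and counts there may have been affected. On the same strand, exons of Glul overlap Mir8114 by 93 bases and those of Aldh1l1 overlap Gm45901 by 105 bases.

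Gfap, the intermediate filament protein of astrocytes (ENSMUSG00000020932, chromosome 11, 102887336 to 102900912 in mm10), was not called. It was at 856, 782 and 736 CPM in cKO replicates 1, 2 and 3, against 778, 802 and 551 CPM in control replicates 1, 2 and 3. The lowest library was control replicate 3, and both other controls lay inside the cKO range. The log2 fold change was 0.16 (95% interval -0.16 to 0.47, edgeR adjusted p = 0.893) and -0.0042 without control replicate 3. Control replicate 3 is also the library with the low striatal and high thalamic sums; the part of brain region in the Gfap value was not tested.

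The metallothionein genes Mt1, Mt2 and Mt3 lie in a row on chromosome 8, and encode small cysteine-rich proteins that bind zinc and copper. Mt1 and Mt2 are induced by metals, through elements near their start, and by glucocorticoids, whereas Mt3 is a brain form that is less inducible. Mt1 spans 94179082 to 94180327, Mt2 spans 94172664 to 94173568 and Mt3 spans 94152607 to 94154146 (mm10, plus strand). Their RefSeq promoter windows (GRCm38.p6, plus strand, from 250 bases before to 50 after the start) are shown because Mt1 and Mt2 had the largest log2 fold changes of the 30, with their neighbour Mt3 beside them. Capitals mark matches to the core of the metal response element, searched as TGCACNC and TGCGCNC on both strands. The windows are chr8:94178839-94179138 for Mt1, chr8:94172368-94172667 for Mt2 and chr8:94152357-94152656 for Mt3. They follow RefSeq starts, whereas the spans above are those of GENCODE M21, and the starts differ for Mt1 and Mt2.
Mt1: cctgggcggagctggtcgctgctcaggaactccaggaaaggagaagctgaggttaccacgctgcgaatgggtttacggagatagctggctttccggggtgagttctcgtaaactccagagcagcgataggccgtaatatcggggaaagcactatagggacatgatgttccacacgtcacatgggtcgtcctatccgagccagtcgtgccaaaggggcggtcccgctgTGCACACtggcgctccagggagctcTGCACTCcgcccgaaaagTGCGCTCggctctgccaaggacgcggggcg
Mt2: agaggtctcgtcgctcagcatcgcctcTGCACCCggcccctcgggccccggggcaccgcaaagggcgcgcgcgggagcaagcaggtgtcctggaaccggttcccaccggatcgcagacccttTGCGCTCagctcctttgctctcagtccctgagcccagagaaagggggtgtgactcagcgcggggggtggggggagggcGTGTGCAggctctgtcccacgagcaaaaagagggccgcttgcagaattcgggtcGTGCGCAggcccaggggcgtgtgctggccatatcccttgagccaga
Mt3: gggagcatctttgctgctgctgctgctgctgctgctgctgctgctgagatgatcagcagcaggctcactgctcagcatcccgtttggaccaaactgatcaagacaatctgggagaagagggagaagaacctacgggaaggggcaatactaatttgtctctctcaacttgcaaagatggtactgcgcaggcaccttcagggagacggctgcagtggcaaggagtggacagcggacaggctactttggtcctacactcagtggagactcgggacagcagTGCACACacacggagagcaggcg

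The Mt1 window held 3 matches, all on the plus strand, and the Mt2 window 4, of which 2 were on the opposite strand, where the letters shown are the reverse complement. The Mt3 window held 1. Of the 32851 windows of this length in the table, 25.7% held at least 1 match, 1.97% at least 3 and 0.517% at least 4. Of the other 24 members with a window, 9 held a match and none more than 2. A match describes these letters and is not a measured binding site.

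Mt1 was at 257, 371 and 435 CPM in cKO replicates 1, 2 and 3, against 300, 253 and 300 CPM in control replicates 1, 2 and 3. Mt2 was at 174, 229 and 274 CPM in cKO, against 193, 161 and 205 CPM in the control forebrains. For both genes cKO replicates 2 and 3 lay above all controls, and cKO replicate 1 lay inside the control range. Mt3 was at 129, 131 and 140 CPM in cKO, against 138, 119 and 129 CPM in the control forebrains, and its groups overlapped.

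The log2 fold changes were 0.32 for Mt1 (95% interval -0.18 to 0.81), 0.28 for Mt2 (-0.17 to 0.72) and 0.051 for Mt3 (-0.099 to 0.2), with edgeR adjusted p-values of 0.856, 0.862 and 0.931. Without cKO replicate 1 that of Mt1 was 0.5 (unadjusted p = 4.09e-04, adjusted p = 0.135) and that of Mt2 was 0.43 (adjusted p = 0.53), while without cKO replicate 3 they were 0.14 and 0.11 (adjusted p = 0.96 for both). Neither gene was called in these fits, and each value rests on which cKO mouse is kept. The count ratio of Mt1 to Mt2 was 1.48, 1.62 and 1.59 in cKO libraries and 1.56, 1.57 and 1.46 in control libraries. The ratio of Mt1 to Mt3 was 2, 2.83 and 3.11 in cKO libraries and 2.17, 2.14 and 2.33 in control libraries. The longest exact stretch that annotated transcripts of Mt1 and Mt2 share is 20 bases.

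Over the cKO libraries, the summed level of 10 glucocorticoid response genes had the same order as Mt1 and Mt2. It was lowest in replicate 1 and highest in replicate 3. The total counts of the cKO libraries ran in that order too. The summed level was 436, 502 and 571 CPM in cKO replicates 1, 2 and 3, and 488, 461 and 503 CPM in control replicates 1, 2 and 3. None of the 10 was called, 6 had a positive and 4 a negative log2 fold change, and the median was 0.048. Per1, a clock gene that glucocorticoids induce, chosen after its values were seen, was at 82.9, 98.3 and 118 CPM in cKO, against 97.9, 83 and 83.7 CPM in the control forebrains. The part of this response in the metallothionein values was not tested.

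**Figure D3:**
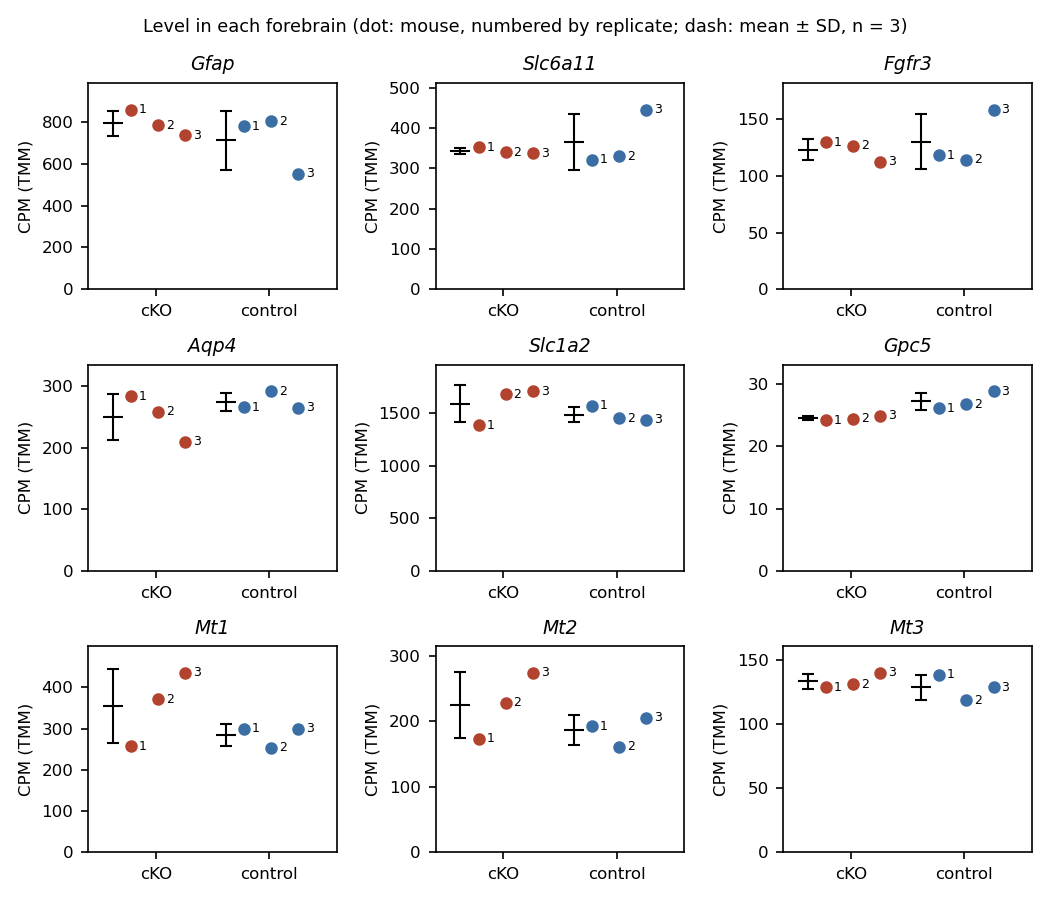
TMM-normalised CPM of 9 astrocyte genes in each forebrain, cKO left of control, with the replicate number beside each dot and the mean ± SD (n = 3) at its left. Control replicate 3 is the low dot of Gfap and the high dot of Slc6a11 and Fgfr3, and cKO replicates 2 and 3 are the high dots of Mt1 and Mt2.

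The members also varied between single libraries. The ratio of the highest to the lowest library ran from 1.12 for Atp1b2 to 1.79 for Ppp1r3c. Control replicate 3 was outside the range of the other 5 libraries for 12 members, above it for 10 and below it for 2, Gfap and Cbs. It was the highest library for 25.8% and the lowest for 26.2% of all tested genes. Besides Slc6a11 and Fgfr3, the members above the range there were Hepacam, Slc4a4, Atp1b2, Plpp3, Gpc5, Tril, Clu and Slc39a12. The zinc importer gene Slc39a12 was at 36.4 CPM there and at 27.7 to 31.9 CPM in the other 5 libraries; its log2 fold change of -0.11 was -0.0052 without control replicate 3.

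Control replicate 2 was the lowest library for 13 of the 30 members and for 12.5% of all tested genes, and cKO replicate 3 was the lowest for 9 members and for 16.4% of all tested genes. Averaged over the 30 genes, the log2 level relative to the 6-library mean stood at -0.026, 0.043 and -0.014 for cKO replicates 1, 2 and 3, and at 0.031, -0.076 and 0.043 for control replicates 1, 2 and 3. The groups overlapped on this mean. Slc7a10 varied more among cKO than control libraries, at 20.5, 17.7 and 13.4 CPM in cKO replicates 1, 2 and 3, against 16.9, 18.7 and 16.3 CPM in control replicates 1, 2 and 3.

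**Figure D4:**
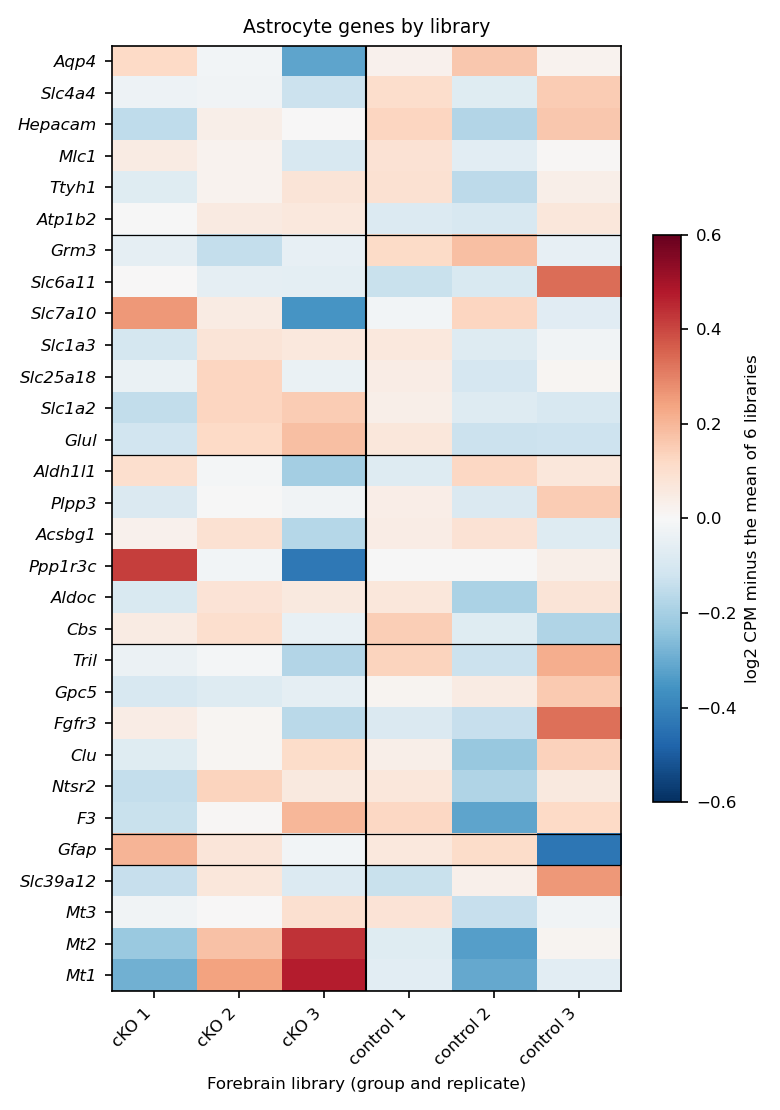
Log2 CPM of each astrocyte gene minus its mean over the 6 libraries (colour), cKO libraries left of the black line and control libraries right of it, genes grouped by role. No column block is of 1 colour: the dark cells are single libraries, among them control replicate 3 for Gfap (551 CPM) and cKO replicate 3 for Mt1 (435 CPM).

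A further list held 44 astrocyte genes outside the 30. None was called by edgeR after adjustment, 22 were positive and 22 negative, and the median log2 fold change was 0.0052. At an unadjusted p under 0.05 there were 3. S100b, a calcium-binding protein of astrocytes that cells of the oligodendrocyte lineage also express, was at 21.9, 21.8 and 21.4 CPM in cKO, against 28.1, 25.4 and 36 CPM in the control forebrains. Its groups did not overlap, with a log2 fold change of -0.46 (95% interval -0.72 to -0.21, edgeR adjusted p = 0.256). Itih3, a hyaluronan-binding secreted protein, was at 19.5, 27 and 28.3 CPM in cKO, against 18.1, 18.4 and 18.4 CPM in the control forebrains (log2 fold change 0.45, adjusted p = 0.357).

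Timp4, a metalloproteinase inhibitor, and Mmd2, a membrane protein of the progestin receptor family, had log2 fold changes of -0.24 and -0.13 (edgeR adjusted p = 0.718 and 0.816). Gja1, Sox9 and Apoe were chosen after their values were seen, as well known markers. Gja1, the main astrocyte connexin, averaged 272 ± 10.6 CPM in cKO and 258 ± 16.6 CPM in the control forebrains (SD, n = 3 per group; log2 fold change 0.081). Sox9, a transcription factor of astrocytes, averaged 40.1 ± 2.46 CPM in cKO and 43.2 ± 4.82 CPM in the control forebrains (log2 fold change -0.11). Apoe, the main lipoprotein of the brain, averaged 1712 ± 58.6 CPM in cKO and 1578 ± 111 CPM in the control forebrains (log2 fold change 0.12).

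Genes of radial glia and immature astrocytes were less even, although none of 18 was called by edgeR after adjustment. Of these 18, 15 had a negative log2 fold change, and the median was -0.15. At an unadjusted p under 0.05 there were 8, beside 6.27% of all tested genes, 6 of them lower and 2 higher in cKO. Several genes of the list, such as Ptprz1, Sox2, Id3 and Tnc, are also expressed in oligodendrocyte precursors. Id3, an inhibitor of basic helix-loop-helix factors, was at 48.1, 50.8 and 44.1 CPM in cKO, against 63.5, 55.2 and 70.6 CPM in the control forebrains (log2 fold change -0.41, adjusted p = 0.165). The matrix glycoprotein gene Tnc and the endothelin receptor gene Ednrb had log2 fold changes of -0.42 and -0.27 (adjusted p = 0.308 and 0.339). The groups of these 3 genes did not overlap. This held for 6 of the 18 genes, beside 11.9% of all tested genes.

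The intermediate filament genes Vim and Nes had the opposite sign. Vim was at 74.5, 76.1 and 66.9 CPM in cKO, against 63.5, 61.8 and 58.2 CPM in the control forebrains, a log2 fold change of 0.25 (95% interval 0.092 to 0.4, edgeR adjusted p = 0.372). Nes, chosen after its values were seen, was at 40.9, 34.9 and 28.2 CPM in cKO, against 25.4, 26.6 and 18.8 CPM in the control forebrains, a log2 fold change of 0.55 (adjusted p = 0.552). All cKO values of both lay above all control values. Both genes are also expressed by endothelial cells or pericytes. The 10 genes of pericytes and smooth muscle had a median log2 fold change of 0.17 and the 15 endothelial genes one of 0.08. The 10 fibroblast genes had a median of 0.36, with 8 positive and 2 negative. None was called in these lists. The pericyte list held Cspg4 and the fibroblast list Pdgfra, both also counted as oligodendrocyte precursor genes. The part of these cells in the Vim and Nes values was not tested.

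Of 35 genes induced in reactive astrocytes, 1 was called, higher in cKO, beside 0.059% of all tested genes called higher. H2-D1, a class I histocompatibility gene expressed by most cells, rose to 71.8, 66.3 and 69.3 CPM in cKO, against 53.8, 51 and 49.1 CPM in the control forebrains (log2 fold change 0.43, edgeR adjusted p = 0.0151). Of the 35, 26 had a positive log2 fold change, and the median was 0.18. At an unadjusted p under 0.05 there were 8, beside 6.27% of all tested genes. Groups did not overlap for 12, beside 11.9% of all tested genes. Cd14, Iigp1 and H2-T23 came next, with log2 fold changes of 0.79, 1.28 and 0.44 that were not called (adjusted p = 0.253, 0.271 and 0.552). Their levels were low, with means of 3.94, 2.36 and 7.17 CPM in cKO and 2.275, 0.953 and 5.28 CPM in the control forebrains. Cd14 is a receptor of microglia and macrophages, Iigp1 an interferon-inducible GTPase and H2-T23 another class I gene. The 20 microglial genes summed to 731, 657 and 789 CPM in cKO, against 634, 556 and 418 CPM in the control forebrains, with 20 positive log2 fold changes and 0 called; their part in these values was not tested. Without control replicate 3 the median of the reactive list was 0.23 and that of the microglial list 0.29 with 1 gene called, where all libraries gave 0.18 and 0.45.

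The oligodendrocyte lists, measured in the same libraries, held called genes. Of 15 tested precursor genes 7 fell in cKO by edgeR after adjustment, with a median log2 fold change of -0.61, and of 18 tested genes of newly formed and myelinating oligodendrocytes 10 fell, with a median of -0.93. Over all tested genes 0.207% were called lower. These lists were chosen with earlier results of these data known, so their shares are a description and no test. The precursor list held the called genes Sox10, C1ql1, Neu4 and Tnr, with log2 fold changes of -1.41, -1.72, -2.47 and -0.57. Its genes Pdgfra and Cspg4, with -0.45 and -0.81, were not called (edgeR adjusted p = 0.253 and 0.118). The later list held Bcas1, Myrf, Mbp and Enpp6, with -2.25, -1.66, -1.26 and -2.1. Of the precursor genes 15 were negative and 0 positive. Of the later genes 15 were negative and 3 positive, the highest at 0.38. The difference between the astrocyte and oligodendrocyte lists was itself not tested. Among 18 neuronal and 10 ependymal genes 0 were called, with median log2 fold changes of 0.051 and -0.0063.

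**Figure D5:**
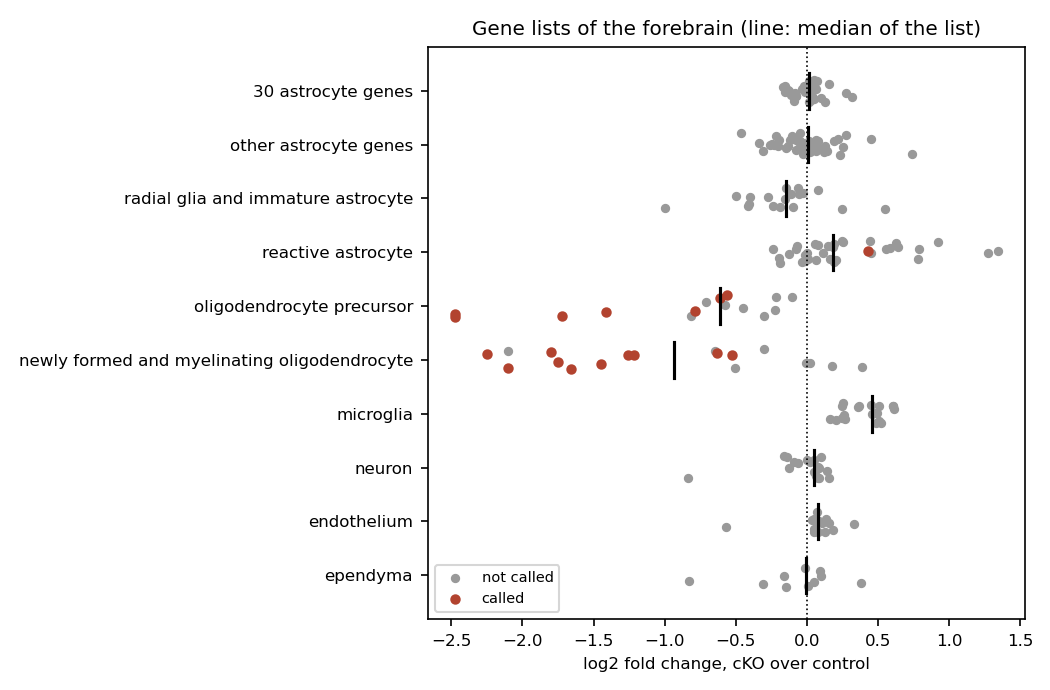
Log2 fold change, cKO over control, of each tested gene in 10 lists (dots; red, adjusted p under 0.05), with the median of each list as a line. The 30 astrocyte genes lie between -0.17 and 0.32, while called oligodendrocyte genes reach -2.48.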

How the data were processed

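Poly(A)-selected RNA of 6 forebrains was sequenced as directional libraries, per the labels' protocols. The authors deposited whole-number read counts per Ensembl gene and a table of FPKM values (counts scaled by gene length and library size). The submitters' processing notes name CASAVA, STAR 2.5, HTSeq 0.6.1, DESeq and mm10, and assign no roles. Whether counting used strand is not given in the sources used here. After rounding, 100% of the deposited FPKM values above 0 equalled the count divided by a whole-number gene length and the library total (tolerance 0.01 bp). Both tables are thus 1 measurement. Names and positions came from GENCODE M21 (mm10), and all 30 members were found in the tables.

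Counts were tested with edgeR 4.0.16 in R 4.3.3. Genes passing filterByExpr (minimum count 10, minimum total 15) numbered 16938, libraries were scaled by TMM, and cKO was set against control by the two-sided quasi-likelihood test with robust dispersion. P-values were adjusted by Benjamini-Hochberg over all tested genes, with calls at an adjusted p under 0.05. Intervals are 95% confidence intervals of that fit. Levels by list are mean log2(CPM + 0.1) deviations. The code was checked on simulated counts. The text names all 30 members, and gives every library for the 8 with the smallest p, the 3 with the largest log2 fold change and 9 chosen by name; from 3 other astrocyte lists it names called genes and the 4 with the smallest p. The members and lists were chosen with earlier results of these data known. Alternatives were 2 other scalings, 2 other filters, DESeq2 1.42.0, limma 3.58.1 on log2 FPKM (pseudocount 1 or 0.1; genes averaging 0.5 FPKM or more), a replicate block and leaving out each library. Nothing says whether the mice came from separate litters, so p-values measure the spread between these 6 animals.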

Additional observations from a re-analysis of the deposited data

How the results depend on the processing

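With each of the 14 alternatives 0 of the 30 astrocyte genes were called in either direction, and the lowest adjusted p of any member was 0.135 (Mt1 without cKO replicate 1). The count at an unadjusted p under 0.05, 0 in the main analysis, was less stable. By edgeR it was 5 without cKO replicate 1, 3 without control replicate 2 and 1 without control replicate 3. With limma on log2(FPKM + 0.1) it was 1, and it stayed at 0 in the other alternatives. The median log2 fold change of the members, 0.015, ranged from -0.047 to 0.035 when 1 library was left out, the lowest without control replicate 2; the cause was not tested. The other settings gave -0.0054 to 0.022. Intervals within 1.5-fold numbered 27 to 29. The sign changed in 30 of 420 member values, 27 of them on leaving out 1 library. Ppp1r3c, 0.015 in the main analysis, was -0.017 with limma on log2(FPKM + 1), -0.023 with log2(FPKM + 0.1) and -0.019 with the replicate block. Leaving out 1 library gave log2 fold changes from -0.056 to 0.019 for Mlc1, -0.054 to 0.067 for Ttyh1, -0.013 to 0.082 for Slc1a3, -0.18 to 0.069 for Slc6a11, -0.16 to 0.14 for Slc7a10, -0.033 to 0.061 for Slc25a18, -0.052 to 0.0799 for Aldoc, -0.094 to 0.035 for Acsbg1, -0.218 to 0.1995 for Ppp1r3c, -0.012 to 0.16 for Cbs, -0.17 to 0.073 for Fgfr3, -0.041 to 0.11 for Ntsr2, -0.085 to 0.12 for F3, -0.069 to 0.104 for Clu, -0.0042 to 0.25 for Gfap and -0.0034 to 0.11 for Mt3. Same-numbered mice did not deviate together (correlations 0.00358, -0.0468 and 0.00622). With 3 mice a group this cannot settle whether the numbers mark pairs. With the replicate block 0 members were called, the median was -0.00064 and 29 intervals lay within 1.5-fold. The block also left 0 of the 35 reactive astrocyte genes called, so the H2-D1 call was lost there, and 9 rather than 10 later oligodendrocyte genes. With 3 mice a group, the intervals of Mt1 and Mt2 do not exclude a 1.5-fold difference.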
